A study of Mus musculus with 36 samples.

Results

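Solute carriers are membrane proteins that move sugars, amino acids, metals, nucleosides, vitamins, organic acids and ions across the plasma membrane and the membranes of lysosomes, Golgi and mitochondria, most of them driven by gradients and not by ATP. In mouse their genes carry the prefix Slc, a family number and a member number. Rows of the expression table whose symbol began with Slc and a digit were taken when their log2 value was at least 3.3, about 10 on the linear scale, in at least 3 of the 36 libraries. Of 293 such rows, 195 passed this floor and 98 did not, and 6 of the 195 were left out by name (Slc1a2, Slc2a1, Slc7a2, Slc7a11, Slc16a3 and Slc35f6). This left 189 members among 11659 tested genes. The choice used the level of the RNA in any group, so a member could enter through a single group in which it was high. The floor was passed in all 36 libraries by 172 of the 189 and in 12 libraries or fewer by 3 (Slc13a2, Slc39a2 and Slc6a19), and 4 passed it only in libraries given LPS (Slc6a4, Slc6a12, Slc39a2 and Slc6a19). For these 4 a rise with LPS was built into the selection. Another 2 groupings overlap with these: Slc13a2 and Slc6a19 passed the floor in only 1 genotype, so that a genotype difference was built in. The counts below include these members. The third-highest log2 value, on which the floor acts, was 3.37 for Slc6a19, 3.46 for Slc13a2, 3.73 for Slc6a17 and 3.80 for Slc39a2 just inside it, and 3.19 for Slc52a3, 3.11 for Slc14a1, 3.09 for Slc35g2 and 2.92 for Slc4a4 just outside. By the known substrate of the member or of its family 185 members fell into 11 classes. The largest were the mitochondrial carriers (36), carriers of amino acids and peptides (28) and carriers of metals and heme (28). A class can thus hold members whose own substrate is less characterised, such as Slc35e4, or differs, such as the serotonin transporter Slc6a4. The label did not hold for the other 4 members, which carry the prefix but encode no carrier (Slc9a3r1, Slc7a6os, Slc4a1ap and the pseudogene Slc2a4rg-ps).

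The RNA came from bone marrow-derived macrophages of mice, that is, primary macrophages obtained by growing marrow cells for 7 days in medium that held 10% serum and 10% supernatant of L929 cells, a source of the growth factor M-CSF. The cells were either wild type (WT) or carried the D310N form of Tnip2, which encodes ABIN-2, a ubiquitin-binding partner of the kinase Tpl2. The table's header writes this mutation D309N, and the titles' spelling is used. Each genotype was sampled without stimulus (0 min) and after 30, 60, 120, 240 and 360 min of 100 ng/ml lipopolysaccharide (LPS), a bacterial cell wall component sensed through Toll-like receptor signalling, with 3 libraries in each of the 12 groups. The labels do not say whether the 3 libraries of a group came from separate mice, whose sex and age they do not give either, so that p-values measure the spread between these libraries, which may be technical.

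Macrophages use several solute carriers in defence and recycling. Iron taken from engulfed red cells leaves through ferroportin (Slc40a1), natural resistance-associated proteins of the Slc11 family draw divalent metals out of phagosomes, and carriers of the lysosomal membrane such as Slc15a3, Slc15a4, Slc29a3 and Slc46a3 export peptides, nucleosides and other products of digestion. During activation, macrophages take up glucose, arginine, cystine and other amino acids and change the exchange of citrate, succinate, aspartate and glutamate across the mitochondrial inner membrane.

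All 8 macrophage markers (Csf1r, Adgre1, Itgam, Cd68, Lyz2, Mertk, Fcgr1 and Cd14) passed the floor, and none of the listed markers of B cells, T and NK cells, erythroid cells, mast cells or stromal cells did. Of neutrophil markers S100a8 and S100a9 passed it while Mpo, Elane, Ngp and Camp did not, and of dendritic cell markers Zbtb46 and Ccr7 passed while Flt3 and Siglech did not. Their part in the results was not tested. The table holds normalised values, and the read depth behind them is unknown. Among the 36 libraries, the library labelled WT at 360 min, replicate 1, stood apart from its group. It was the only one whose closest library lay outside its own group, correlating over the tested genes at 0.99659 to 0.99688 with the 3 libraries of WT at 240 min and at 0.98942 to 0.99075 with the other 2 of WT at 360 min. For 141 of the 189 members its value was nearer to the WT mean of 240 min. The changes are therefore described at 240 min, and values at 360 min that involve WT are given with and without this library.

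Values below are deposited log2 normalised levels. A difference of log2 values has its standard error (SE) and comes from limma fitted to all 11659 genes, with 3 libraries per group. A member is said to rise, fall or be called when its p adjusted over all genes tested (Benjamini-Hochberg) was under 0.05. In such bulk samples fewer cells of a type and less RNA per cell cannot be told apart.

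In WT macrophages, 8 members were called at 30 min of LPS (5 higher, 3 lower), against 6.10% of all genes, 4.79% higher and 1.31% lower. At 60 min 69 were called (36 higher, 33 lower), against 37.2% of all genes, 20.1% higher and 17.1% lower. At 120 min the calls numbered 129 (58 higher, 71 lower), against 66.6% of all genes, 32.4% higher and 34.2% lower. By 240 min 152 of the 189 members were called, 62 higher and 90 lower, which is 80.4% of them against a background of 80.0%. The share that rose was 32.8% of members against 39.6% of all genes and the share that fell was 47.6% against 40.4%, with a median difference of -0.17 for members and -0.02 for all genes. At 360 min 156 were called (63 higher, 93 lower), against 80.4% of all genes, 39.3% higher and 41.0% lower, or 160 (64 higher, 96 lower, against 80.3%) without the library that stood apart. The members as a whole were thus called about as often as other genes, and what follows is about which of them moved. The early split of higher to lower calls depended on scaling: at 30 min it was 4 and 5 with median centring and 6 and 13 with quantile normalisation, which gave 28 higher and 57 lower of 85 at 60 min.

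In D310N macrophages 6 members were called at 30 min (6 higher, 0 lower), against 6.64% of all genes, 5.15% higher and 1.48% lower. At 60 min 69 were called (39 higher, 30 lower), against 38.5% of all genes, 21.3% higher and 17.2% lower, and at 120 min 115 (55 higher, 60 lower), against 64.0% of all genes, 31.9% higher and 32.1% lower. At 240 min the calls numbered 151 (61 higher, 90 lower), against 79.1% of all genes, 38.9% higher and 40.2% lower, and at 360 min 161 (66 higher, 95 lower), against 80.0% of all genes, 39.0% higher and 41.0% lower. At 240 min 143 members were called in both genotypes, all of them in the same direction, which is 94.1% of those called in WT and 94.7% of those called in D310N (91.6% and 92.6% over all genes). The members called in both and in the same direction were fewer at 30 min (4, or 50% and 66.7%, against 76.9% and 70.7% of all genes), 60 min (55, or 79.7% of each, against 84.8% and 81.9%) and 120 min (101, or 78.3% and 87.8%, against 87% and 90.5%). At 360 min there were 142 (91% and 88.2%, against 91.9% and 92.3%), while Slc22a15, named after its values were seen, was called in opposite directions. Without the library that stood apart there were 150 (93.8% and 92%, against 93.1% and 91.5%), with none called in opposite directions. Quantile normalisation gave 4 higher and 5 lower in D310N at 30 min and 36 higher and 54 lower of 90 at 60 min.

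**Figure D1:**
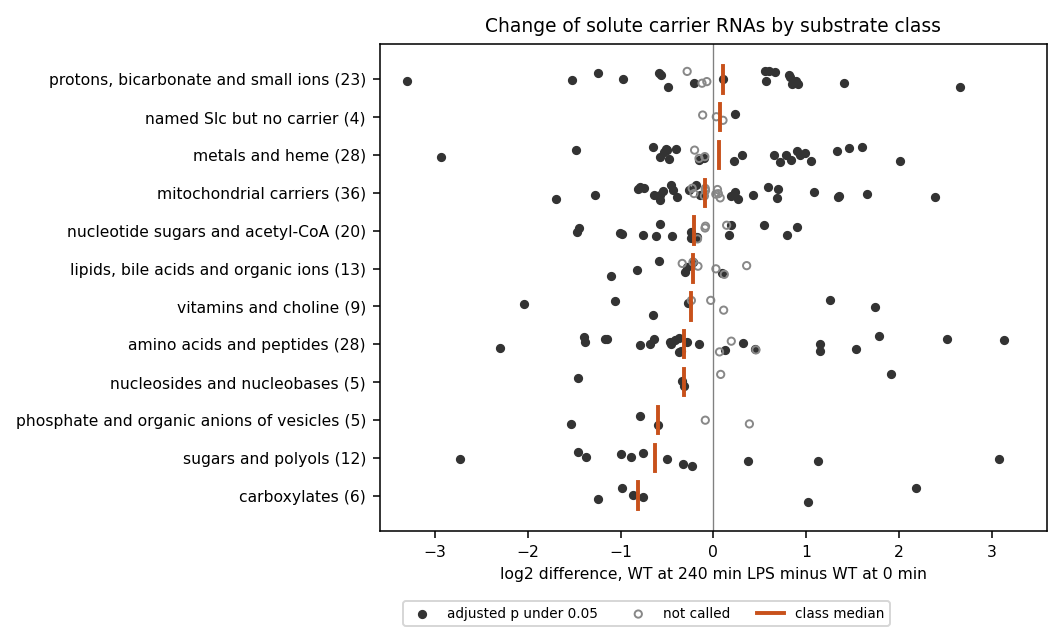
Each point is 1 solute carrier RNA, placed by its log2 difference between WT macrophages at 240 min and at 0 min of LPS, in rows by substrate class with the number of members in parentheses. Filled points were called at an adjusted p under 0.05, open points were not, and the bar is the class median. Every class holds points on both sides of 0, from -3.30 for Slc26a11 to 3.13 for Slc6a4. Slc6a4 passed the floor only in libraries given LPS, so its rise was built into its selection.

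The counts of each class and gene list in WT at 240 min are to be read against the 39.6% of all genes that rose and the 40.4% that fell. Carriers of metals and heme split almost evenly at 240 min in WT, with 14 of 28 members higher and 11 lower (median 0.06). The largest fall was that of Slc40a1 (ferroportin, the iron exporter; chr1:45908068-45926523 on GRCm38), which stood at 10.14, 10.22 and 10.21 in the 3 WT libraries without LPS and at 7.23, 7.30 and 7.23 after 240 min. The groups lay nearly 3 log2 units apart with no overlap, a difference of -2.94 ± 0.05 (adjusted p = 2.07e-29). The fall had begun by 60 min (-0.37 ± 0.05) and reached -2.93 ± 0.05 in D310N at 240 min. The proton-coupled iron importer Slc11a2, which works at endosomes, moved the other way, from 10.21, 10.19 and 10.35 to 11.60, 11.68 and 11.48 in WT (1.34 ± 0.09). Its relative Slc11a1, the phagosomal metal transporter known as Nramp1, was not called in WT at 240 min (-0.20 ± 0.10, adjusted p = 0.0724) and fell in D310N (-0.32 ± 0.10). Slc48a1, which brings heme out of lysosomes and overlaps Hdac7 on the other strand, fell by 0.65 (SE 0.10) in WT at 240 min. Whether reads were counted by strand is not given in the sources used here, so genes overlapping on opposite strands cannot be told apart.

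The copper carriers rose together. Slc31a2, which lies beside Slc31a1 on chromosome 4 (chr4:62262562-62298411 on GRCm38) and moves copper from endosomes and lysosomes, went from 10.12, 10.18 and 10.18 without LPS to 11.38, 11.39 and 11.44 after 120 min and 12.17, 12.16 and 12.18 after 240 min in WT. Each of these groups lay above the one before it, and the difference at 240 min was 2.01 ± 0.06. Slc31a1 (Ctr1), the copper importer of the plasma membrane, whose gene overlaps Cdc26 on the other strand, rose by 0.84 ± 0.05 in WT and 1.03 ± 0.05 in D310N at that time.

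Among zinc carriers, Slc39a14 (Zip14), an importer of zinc, manganese and iron (chr14:70303469-70351425 on GRCm38), peaked and declined. In WT it was 9.45, 9.37 and 9.32 without LPS, 11.23, 11.08 and 11.09 after 120 min and 10.46, 10.44 and 10.39 after 240 min. Every library of 120 min was above every library of 240 min, and both were above 0 min, with differences from 0 min of 1.75 ± 0.08 and 1.05 ± 0.08. Slc39a8 (Zip8), another importer, rose by 0.91 ± 0.08, and Slc30a4, which loads zinc into vesicles, by 1.46 ± 0.07. The exporter Slc30a1 fell first and rose later, with -0.52 ± 0.09 at 60 min and 0.99 ± 0.09 at 240 min. Slc39a10 (Zip10) fell by 1.48 (SE 0.10). Beside these carriers, a list of 18 metal-binding and storage genes had 9 higher and 7 lower in WT at 240 min. It included metallothionein 2 (Mt2, 2.83 ± 0.21), the siderophore-binding lipocalin Lcn2 (3.20 ± 0.20), the metalloreductases Steap4 (3.30 ± 0.19) and Steap3 (-1.44 ± 0.08), and the transferrin receptor Tfrc (-0.29 ± 0.08).

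**Figure D2:**
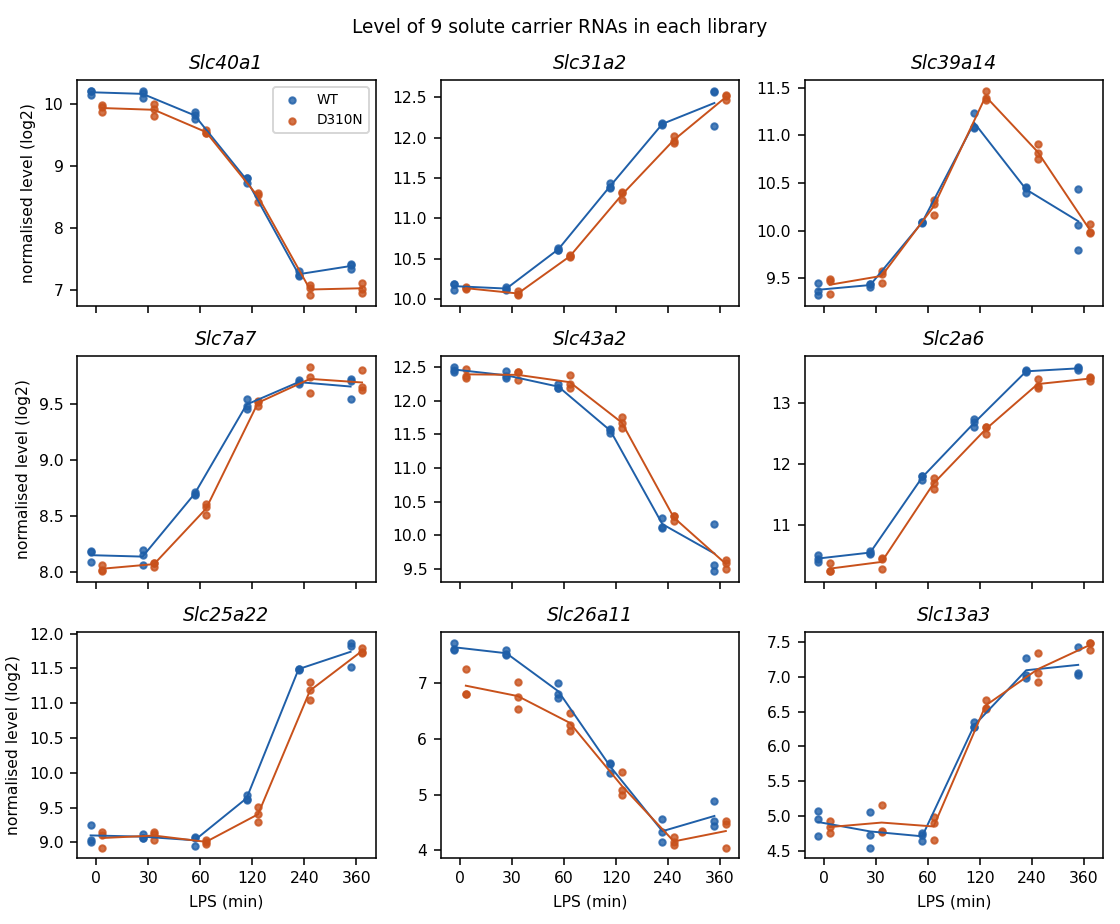
Normalised log2 level of 9 members in each of the 36 libraries (points, 3 per group) against the time of LPS in minutes, with lines through the group means, WT in blue and D310N in orange. Slc40a1, Slc43a2 and Slc26a11 end low and the other 6 end high in both genotypes, Slc39a14 after a peak at 120 min, and at 360 min 1 WT library of Slc31a2, Slc43a2 and Slc25a22 lies near the level of 240 min.

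Of 28 carriers of amino acids and peptides, 9 rose and 16 fell in WT at 240 min (median -0.32, against -0.02 for all genes). Slc43a2 (LAT4, which exports branched-chain and aromatic amino acids; chr11:75531694-75577575 on GRCm38) was 12.51, 12.46 and 12.42 without LPS and 10.11, 10.26 and 10.13 after 240 min in WT. It fell by 2.30 (SE 0.09) without overlap, and the difference in D310N was -2.13 ± 0.09. Slc7a7 (y+LAT1, a partner of Slc3a2 that exchanges cationic for neutral amino acids) was among the members that rose, from 8.19, 8.09 and 8.18 to 9.69, 9.71 and 9.68 (1.54 ± 0.05). Its gene overlaps Oxa1l on the other strand. Slc7a8 (LAT2), a further partner of Slc3a2 named after its values were seen, rose by 1.15 ± 0.06.

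Several importers at the plasma membrane differed more from 0 min at 120 min than at 240 min. The heavy chain Slc3a2 gained 0.74 ± 0.05 at 120 min and 0.32 ± 0.05 at 240 min, where quantile normalisation turned the direction (-0.40). Its partner Slc7a5 (LAT1, an importer of leucine and other large neutral amino acids) gained 0.78 ± 0.10 and 0.45 ± 0.10 at these times. Slc7a1 (CAT1), a carrier of arginine and lysine, gained 0.94 ± 0.10 at 120 min and was not called at 240 min (0.19 ± 0.10, adjusted p = 0.0686). Slc38a2 (SNAT2), a sodium-coupled importer of small neutral amino acids, turned earlier. It was 10.67, 10.78 and 10.75 in WT without LPS, 11.80, 11.86 and 11.92 after 60 min and 9.96, 9.90 and 9.97 after 240 min, with every library of 60 min above and every library of 240 min below those of 0 min. The differences from 0 min were 0.57 ± 0.06 at 30 min, 1.13 ± 0.06 at 60 min and -0.79 ± 0.06 at 240 min. Slc1a5 (ASCT2), a carrier of glutamine, fell by 0.41 (SE 0.08) at 240 min. The taurine carrier Slc6a6 rose by only 0.12 ± 0.04, and this direction depended on scaling: quantile normalisation gave -0.79.

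A pair of sodium-coupled carriers passed the floor only after LPS, so that a rise was built into their selection. Slc6a4, the serotonin transporter, whose low values the unnamed transformation may compress, was 2.53, 2.52 and 2.67 without LPS and 5.80, 5.61 and 5.70 after 240 min in WT, and 4.59, 5.12 and 4.90 in D310N at 240 min. Slc6a12 (the betaine and GABA carrier BGT1), named after its values were seen, was 3.18, 3.09 and 2.69 without LPS and 5.59, 5.27 and 5.67 after 240 min. No library of 240 min overlapped those of 0 min for either gene.

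Lysosomal carriers of peptides and amino acids moved in different directions. Slc15a3, a proton-coupled exporter of histidine and dipeptides from lysosomes (chr19:10839727-10859362 on GRCm38, overlapping Tmem132a on the other strand), was 12.46, 12.51 and 12.55 without LPS, 13.03, 12.99 and 12.98 after 60 min and 14.29, 14.32 and 14.26 after 240 min in WT. The 3 groups did not overlap, and the rise at 240 min was 1.78 ± 0.06. Its relative Slc15a4, which takes part in endosomal Toll-like receptor signalling, differed by -0.15 ± 0.06, a call that ended without WT replicate 1 of 0 min (-0.13, adjusted p = 0.0647) or WT replicate 3 of 240 min (-0.12, adjusted p = 0.0818). Slc36a1 (PAT1), which exports small amino acids from lysosomes, fell by 1.38 (SE 0.08), and Slc38a9, the lysosomal arginine sensor, fell by 0.37 (SE 0.07). Of 13 genes listed for amino acid sensing at the lysosome 5 rose and 7 fell. The largest falls were those of the leucine sensor Sesn1 (-3.12 ± 0.11), the Rag GTPase Rragd (-2.02 ± 0.12) and its regulator Flcn (-1.46 ± 0.14). Those that rose were Rragc (0.60 ± 0.04), Mtor (0.48 ± 0.08), Lamtor5 (0.40 ± 0.05), Sesn2 (0.23 ± 0.11) and Lamtor3 (0.15 ± 0.04).

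Among 12 carriers of sugars and polyols 3 rose and 9 fell in WT at 240 min, against 39.6% and 40.4% of all genes. Slc2a6 (GLUT6, a hexose carrier of lysosomes; chr2:27021363-27027998 on GRCm38) rose most, from 10.50, 10.39 and 10.44 without LPS to 11.80, 11.81 and 11.74 after 60 min and 13.53, 13.55 and 13.51 after 240 min. No groups overlapped and the difference at 240 min was 3.08 ± 0.05 in WT and 3.04 ± 0.05 in D310N. In contrast Slc2a3 (GLUT3), a glucose importer of the plasma membrane, fell by 1.46 (SE 0.17), and Slc37a2, an endoplasmic reticulum exchanger of sugar phosphates, fell by 1.37 (SE 0.05). Slc45a4, a proton-coupled carrier described for sugars and polyamines, was 9.76, 9.64 and 9.68 without LPS and 6.84, 7.01 and 7.03 after 240 min. It fell by 2.73 (SE 0.06) with no overlap.

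Of 6 carriers of carboxylates 2 rose and 4 fell. Slc13a3 (NaDC3, a sodium-coupled importer of succinate, itaconate and other dicarboxylates; chr2:165405028-165473230 on GRCm38) was 4.96, 5.07 and 4.71 without LPS and 6.99, 7.03 and 7.27 after 240 min in WT. The groups did not overlap and the difference was 2.18 ± 0.13, with 2.27 ± 0.13 in D310N. Slc16a1 (MCT1), which carries lactate and pyruvate with protons, rose by 1.02 ± 0.10. Its relatives Slc16a7 (MCT2) and Slc16a6 (MCT7, overlapping Amz2 and Arsg on the other strand) fell by 0.76 (SE 0.07) and fell by 1.25 (SE 0.15), respectively.

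Mitochondrial carriers of the Slc25 family, which span the inner membrane, numbered 36, and 12 rose and 15 fell in WT at 240 min (median -0.09). Slc25a22, which brings glutamate into the matrix, was 9.25, 9.01 and 9.04 in WT without LPS, 9.68, 9.62 and 9.61 after 120 min and 11.50, 11.48 and 11.49 after 240 min. It rose by 0.53 ± 0.07 at 120 min and 2.39 ± 0.07 at 240 min, without overlap at either time. The aspartate and glutamate exchangers moved in opposite directions: Slc25a12 (aralar) rose by 1.66 ± 0.06 and its paralogue Slc25a13 (citrin), named after its values were seen, fell by 0.79 (SE 0.08). The citrate carrier Slc25a1 and the dicarboxylate carrier Slc25a10 rose by 0.43 ± 0.04 and 0.69 ± 0.07, while the oxoglutarate carrier Slc25a11 fell by 0.27 (SE 0.04) and the carnitine carrier Slc25a20 fell by 0.19 (SE 0.05).

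The mitochondrial iron importer Slc25a37 (mitoferrin 1) peaked at 120 min. Its WT values were 8.55, 8.50 and 8.49 without LPS, 10.27, 10.24 and 10.17 after 120 min and 9.08, 9.18 and 9.06 after 240 min. All 3 libraries of 120 min exceeded those of 240 min, with differences from 0 min of 1.71 ± 0.09 and 0.59 ± 0.09. Slc25a28 (mitoferrin 2) fell at 120 min (-0.33 ± 0.08) and was not called at 240 min (0.04 ± 0.08, adjusted p = 0.604). Slc25a44, a carrier of branched-chain amino acids, rose by 1.36 ± 0.05 at 240 min, Slc25a30 fell by 1.28 (SE 0.08), and Slc25a42, a carrier of coenzyme A named after its values were seen, fell by 1.69 (SE 0.14). Slc25a42 was below the floor in part of the libraries. Slc25a25, a calcium-regulated carrier of ATP-Mg and phosphate whose gene overlaps Naif1 on the other strand, gave the earliest and a repeated rise. It was 8.92, 8.99 and 8.98 without LPS, 9.87, 9.91 and 9.98 after 30 min, 9.10, 9.02 and 9.22 after 120 min and 10.29, 10.33 and 10.29 after 240 min in WT. The groups of 30 and 240 min lay above 0 min without overlap (0.96 ± 0.05 and 1.34 ± 0.05), and the call at 120 min (0.15 ± 0.05) ended without WT replicate 1 of 0 min (0.12, adjusted p = 0.0574) or WT replicate 3 of 120 min (0.09, adjusted p = 0.127).

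Promoter windows of the 250 bases before a start site were read from RefSeq on GRCm38.p6, where 144 of the 189 members had an entry, 195 entries in all. They were searched on both strands for simplified forms, with N for any base, of the letters that interferon-activated factors, NF-kB, AP-1, CREB and the metal-responsive factor prefer. A match can therefore hold a base that the factor does not prefer, such as the middle T of TGATTCA in Slc6a12 below. The interferon-type letters, GAAA and again GAAA after any NN, were in 3 of the 195 (1.54%, against 2.98% of 32851 promoters), the NF-kB-type letters, GGG followed by any NN and TTTCC, in 2 (1.03%, against 1.41%) and the AP-1-type letters TGANTCA in 12 (6.15%, against 6.75%). The CREB-type letters TGACGTCA were in 3 (1.54%, against 1.55%) and the metal-responsive letters TGCGCNC in 32 (16.4%, against 12.5%). No search looked for the overlap of these letters with other motifs, and a match is a description of the sequence. Windows are shown for 3 members that rose and held interferon-type, NF-kB-type or CREB-type letters. The other members with such letters fell in WT at 360 min without the library that stood apart. They were Slc25a15 (-0.38) and Slc37a1 (-1.01) with interferon-type letters and Slc37a4 (-0.54) with NF-kB-type letters. With CREB-type letters they were Slc25a36 (-0.51) and Slc38a6 (-0.39). The letters thus did not go with 1 direction of change. Capitals mark every match to any of the 5 motifs in the window, which is printed from 5′ to 3′ on the strand of the gene.
Slc25a25, chr2:32424067-32424316, minus strand, 1 of its 3 entries, with the CREB-type letters beginning 150 bases before the start: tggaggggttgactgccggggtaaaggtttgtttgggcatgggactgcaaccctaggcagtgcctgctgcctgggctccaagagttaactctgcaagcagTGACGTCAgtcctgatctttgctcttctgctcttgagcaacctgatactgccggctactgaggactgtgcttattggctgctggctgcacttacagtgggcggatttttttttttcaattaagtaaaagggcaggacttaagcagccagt
Slc25a22, chr7:141435398-141435625, minus strand, 1 of its 3 entries, without the bases next to the start that another transcript holds in an exon, with the interferon-type letters 79 bases before the start: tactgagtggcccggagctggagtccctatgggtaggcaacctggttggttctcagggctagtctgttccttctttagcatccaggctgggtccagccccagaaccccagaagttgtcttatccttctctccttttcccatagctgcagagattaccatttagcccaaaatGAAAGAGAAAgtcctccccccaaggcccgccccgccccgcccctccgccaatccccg
Slc6a12, chr6:121342324-121342573, plus strand, 1 of its 5 entries, with the NF-kB-type letters, read here on the opposite strand, 133 bases and the AP-1-type letters 58 bases before the start: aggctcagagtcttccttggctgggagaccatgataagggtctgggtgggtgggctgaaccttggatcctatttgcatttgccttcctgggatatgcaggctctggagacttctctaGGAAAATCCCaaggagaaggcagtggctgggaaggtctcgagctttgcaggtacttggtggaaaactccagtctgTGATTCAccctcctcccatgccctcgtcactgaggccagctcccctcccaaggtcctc

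Nucleoside and nucleobase carriers numbered 5, with 1 higher and 3 lower in WT at 240 min. Slc28a2 (CNT2, a sodium-coupled importer of purine nucleosides and uridine; chr2:122426477-122461137 on GRCm38) was 9.46, 9.47 and 9.43 without LPS and 11.37, 11.41 and 11.31 after 240 min. This was a rise of 1.91 ± 0.14 with no overlap. The lysosomal nucleoside exporter Slc29a3 fell as early as 60 min (-0.55 ± 0.08). The equilibrative carrier Slc29a2, named after its values were seen and below the floor in part of the libraries, fell by 1.46 (SE 0.16) at 240 min. The plasma membrane carrier Slc29a1 (ENT1) was not called at that time (0.08 ± 0.07, adjusted p = 0.3).

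Golgi and endoplasmic reticulum carriers of nucleotide sugars and acetyl-CoA numbered 20, of which 5 rose and 11 fell. Slc35d1, which carries UDP-glucuronic acid and UDP-N-acetylgalactosamine, rose by 0.90 ± 0.09, and the GDP-fucose carrier Slc35c1 fell by 1.01 (SE 0.07). Its relative Slc35c2 fell by 0.99 (SE 0.06), the less characterised Slc35e4 fell by 1.47 (SE 0.07) and Slc35g1 fell by 1.45 (SE 0.13). Of 5 carriers of phosphate and vesicular anions none rose and 3 fell at 240 min. The phosphate importer Slc20a1 (PiT1), whose gene overlaps 9830144P21Rik on the other strand, was 10.15, 10.15 and 10.05 without LPS, 10.54, 10.54 and 10.53 after 60 min and 8.70, 8.44 and 8.59 after 240 min in WT. It thus rose at 60 min (0.42 ± 0.06) and fell below its starting level by 240 min (-1.54 ± 0.06), without overlap at either time. The lysosomal sialic acid exporter Slc17a5 fell by 0.59 (SE 0.06) and the vesicular nucleotide carrier Slc17a9 fell by 0.79 (SE 0.15).

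Of 23 carriers of protons, bicarbonate and small ions 12 rose and 8 fell in WT at 240 min. Slc26a11, a sulfate and chloride carrier (chr11:119355557-119381079 on GRCm38), was 7.73, 7.59 and 7.61 without LPS, 5.55, 5.56 and 5.39 after 120 min and 4.56, 4.32 and 4.15 after 240 min. Each of these groups lay below the one before it without overlap, and the difference of -3.30 ± 0.14 was the most negative of the 189 members at 240 min. Slc4a11, a borate-named carrier of protons and hydroxide, was 3.99, 3.71 and 4.14 without LPS and 6.44, 6.79 and 6.58 after 240 min (2.66 ± 0.21). It was below the floor in part of the libraries. The sodium bicarbonate importer Slc4a7 rose by 1.47 ± 0.12 at 120 min and 1.41 ± 0.12 at 240 min, and the sodium-potassium-chloride importer Slc12a2 (NKCC1) by 0.89 ± 0.12 at 240 min. Slc8b1, the sodium-calcium exchanger of mitochondria, fell by 1.52 (SE 0.21). Among other transporters, 8 of 11 ATPase ion pumps rose and 2 fell (median 0.32), and of 25 ABC transporters 7 rose and 16 fell (median -0.36), where 39.6% of all genes rose and 40.4% fell.

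Vitamin and choline carriers numbered 9, with 2 higher and 4 lower in WT at 240 min. Slc44a1, a choline carrier, was 10.15, 10.20 and 10.14 without LPS and 11.91, 11.94 and 11.87 after 240 min. The rise was 1.74 ± 0.06 with no overlap, and the ascorbate importer Slc23a2 rose by 1.26 ± 0.05. Slc46a3, a lysosomal carrier of the folate carrier family, was 8.49, 8.52 and 8.49 without LPS and 6.55, 6.55 and 6.26 after 240 min, and fell by 2.04 (SE 0.12). The biotin and pantothenate importer Slc5a6 fell by 1.06 (SE 0.13). Of 13 carriers of lipids, bile acids and organic ions 1 rose and 6 fell, led by the fatty acid transport protein Slc27a1, which fell by 1.11 (SE 0.06). The call of the 1 riser, Slc10a7 (0.09 ± 0.04, adjusted p = 0.0485), ended when any of 24 of the 36 libraries was left out. The scaffold protein Slc9a3r1, 1 of the 4 members that are no carriers, rose at 120 min (0.44 ± 0.08).

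**Figure D3:**
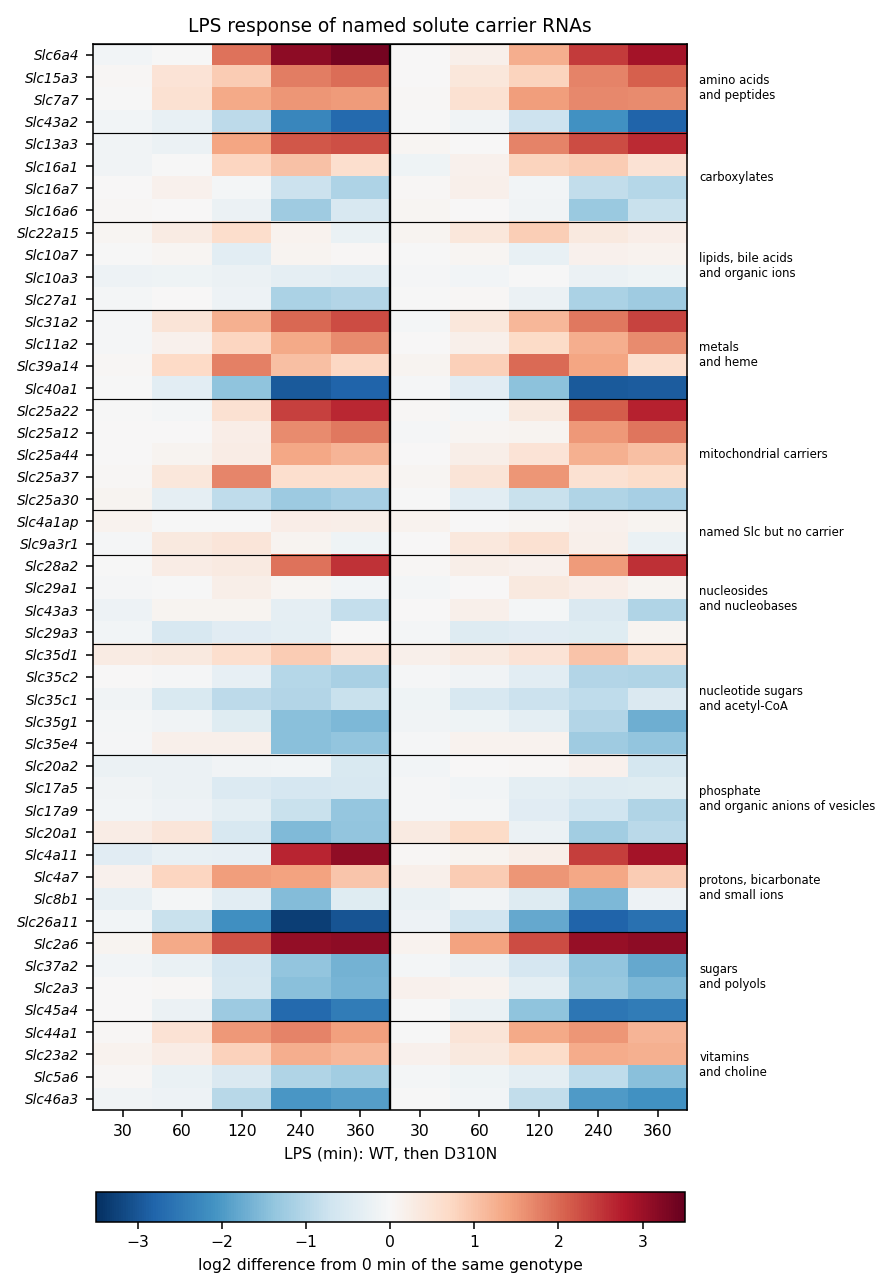
Log2 difference from 0 min of the same genotype (colour scale, red higher and blue lower) for 48 members in rows, grouped by substrate class and ordered by their WT difference at 240 min, at 30 to 360 min of LPS in WT and then in D310N. The columns of WT and D310N carry the same colours for nearly all rows, and most rows change little before 120 min. Members Slc6a4, Slc15a3, Slc7a7 and Slc31a2 are red and Slc40a1, Slc26a11, Slc45a4 and Slc43a2 blue at 240 and 360 min in both. Slc6a4 passed the floor only in libraries given LPS.

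Over time in WT, 23 members were higher at each of 60, 120, 240 and 360 min (12.2%, against 13.9% of all genes), among them Slc2a6, Slc31a1, Slc31a2, Slc7a7, Slc15a3 and Slc4a7. Another 19 were lower at each of these times (10.1%, against 10.0%), among them Slc40a1, Slc26a11, Slc36a1 and Slc37a2. Early rise and late fall, called at 60 or 120 min and again at 240 or 360 min, was met by 10 members (5.29%, against 4.20%), including Slc38a2, Slc20a1, the aromatic amino acid carrier Slc16a10, the magnesium carrier Slc41a2 and the inositol carrier Slc5a3. Slc5a3 lies within Mrps6 on the same strand, so its reads cannot be told apart from those of Mrps6. The opposite course was met by 11 (5.82%, against 5.37%), including Slc30a1. A further 13 were called at no LPS time (6.88%, against 7.75%), among them the zinc importer Slc39a4 and the sodium-calcium-potassium exchanger Slc24a3. Without the library that stood apart, the members higher at each of the 4 times numbered 25 (13.2%, against 14.8% of all genes) and those lower 19 (10.1%, against 10.6%). Early rise and late fall was then met by 16 (8.47%, against 5.76%), the opposite course by 14 (7.41%, against 7.06%) and no call by 8 (4.23%, against 6.4%), with Slc39a4 and Slc24a3 no longer among them.

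The genotypes were compared as D310N minus WT at each time. At 0 min 17 members were called (5 higher, 12 lower), against 10.7% of all genes, 3.64% higher and 7.09% lower. At 30 min 21 were called (8 higher, 13 lower), against 12.2% of all genes, 4.42% higher and 7.78% lower, and at 60 min also 21 (8 higher, 13 lower), against 12.8% of all genes, 4.89% higher and 7.96% lower. Centring libraries on their medians turned these splits to 11 higher and 9 lower at 0 min, 13 and 9 after 30 min, and 16 and 12 after 60 min (14 and 12 with quantile normalisation). At 120 min 31 were called (16 higher, 15 lower, or 14 and 17 with median centring and 15 and 17 with quantile normalisation), against 17.6% of all genes, 7.93% higher and 9.72% lower. At 240 min 37 were called (13 higher, 24 lower, or 14 and 16 with quantile normalisation), against 17.0% of all genes, 6.97% higher and 10.0% lower. At 360 min the calls numbered 38 (16 higher, 22 lower, or 16 and 13 with quantile normalisation), against 16.3% of all genes, 6.80% higher and 9.52% lower. Without the library that stood apart, the count at 360 min was 45 (21 higher, 24 lower, against 17.9%). On average over the 6 times, 93 members were called (44 higher, 49 lower, or 49 and 44 with median centring and 50 and 44 with quantile normalisation), 49.2% of them, against 48.1% of all genes, 22.7% higher and 25.4% lower. None of these averages reached 1 in size. At single times, called genotype differences of more than 1 were found for 1 member at 30, 1 at 120, 2 at 240 and 1 at 360 min. Of all 11659 genes, 49, 52, 33 and 28 had such differences at these times. At 0 and 60 min it was 0 members, against 46 and 56 of all genes. At 360 min no difference of a member reached 1 without the library that stood apart. After 240 min of LPS in WT 49 members were called with a change of more than 1, against 3035 of all 11659 genes. Without that library the average gave 104 (49 higher, 55 lower, against 52.3%).

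Slc43a3, a carrier of purine nucleobases and described for fatty acids (chr2:84936579-84958509 on GRCm38), showed the largest average difference. It was 8.30, 8.36 and 8.37 in WT and 7.40, 7.55 and 7.42 in D310N at 0 min, and 8.03, 8.07 and 7.98 and 6.84, 7.14 and 6.87 after 240 min. The D310N libraries lay below those of WT at both times without overlap. The average difference was -0.94 ± 0.05 (adjusted p = 2.42e-15), or -0.90 ± 0.04 without the library that stood apart.

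Slc43a3 and Slc40a1 were called lower in D310N at all 6 times (2 of 189 members, 1.06%, against 1.84% of all genes), and Slc12a4, a potassium-chloride exporter named after its values were seen, was called higher at all 6 (0.529%, against 0.738%). Without the library that stood apart the same pair was lower at all 6 times (against 2.22% of all genes), and Slc22a4 joined Slc12a4 as higher at all 6 (1.06%, against 1.1%). For Slc40a1 the D310N values were 9.98, 9.95 and 9.87 without LPS, below the 3 WT values, and 7.07, 6.91 and 7.04 after 240 min, again below them. The average difference was -0.28 ± 0.02, and its LPS response did not pass the joint test described below (adjusted p = 0.937). The call of Slc12a4 at 0 min (0.16 ± 0.04) ended without D310N replicate 1 of 0 min (0.13, adjusted p = 0.0985) or D310N replicate 3 of 0 min (0.15, adjusted p = 0.0651).

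Other members lower in D310N on average were the zinc importer Slc39a4 (-0.63 ± 0.09), the neutral amino acid carrier Slc1a4 (ASCT1, -0.56 ± 0.06), Slc26a11 (-0.47 ± 0.06), the organic cation carrier Slc22a18 (-0.46 ± 0.05) and the chloride-bicarbonate exchanger Slc4a3 (-0.46 ± 0.07). Slc39a4 was below the floor in part of the libraries, and its average was -0.54 ± 0.06 without the library that stood apart. Without that library, Slc1a4 (-0.04 ± 0.16) and Slc39a4 (-0.12 ± 0.16) were not called between genotypes at 360 min. Neither were Slc26a11 (-0.14 ± 0.15) and Slc4a3 (-0.45 ± 0.19), while Slc22a18 was (-0.66 ± 0.12). The joint test described below gave Slc1a4 an adjusted p of 0.0888, or 0.0358 without that library. For Slc1a4 the libraries read 5.79, 5.91 and 5.47 in WT and 5.01, 5.01 and 4.89 in D310N at 0 min, and 5.34, 5.20 and 5.24 and 4.72, 5.04 and 5.08 after 240 min. The groups did not overlap at either time, and at 240 min the difference was not called, at -0.31 ± 0.14 (adjusted p = 0.138). Slc7a5 and its heavy chain Slc3a2 were also lower on average (-0.35 ± 0.04 and -0.11 ± 0.02). At 360 min neither was called without the library that stood apart (-0.05 ± 0.10 and -0.10 ± 0.05).

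Members higher in D310N on average were led by Slc15a2 (PEPT2, a proton-coupled importer of dipeptides), at 4.45, 4.02 and 3.89 in WT and 4.31, 5.39 and 5.24 in D310N at 0 min. The groups overlapped at that time, and the average difference over the 6 times was 0.81 ± 0.13. Slc22a4 (OCTN1, an ergothioneine carrier) differed by 0.49 ± 0.06, Slc39a10 by 0.29 ± 0.04, Slc48a1 by 0.27 ± 0.04, Slc24a3 by 0.24 ± 0.04 and Slc11a1 by 0.22 ± 0.04. Slc11a1 read 11.78, 11.69 and 11.76 in WT and 12.12, 11.75 and 12.11 in D310N at 0 min, with overlap, and was not called at that time alone (0.26 ± 0.10, adjusted p = 0.118). Without the library that stood apart, the averages of these 6 ranged from 0.24 to 0.83 and those of the 6 lowest from -0.42 to -0.90.

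**Figure D4:**
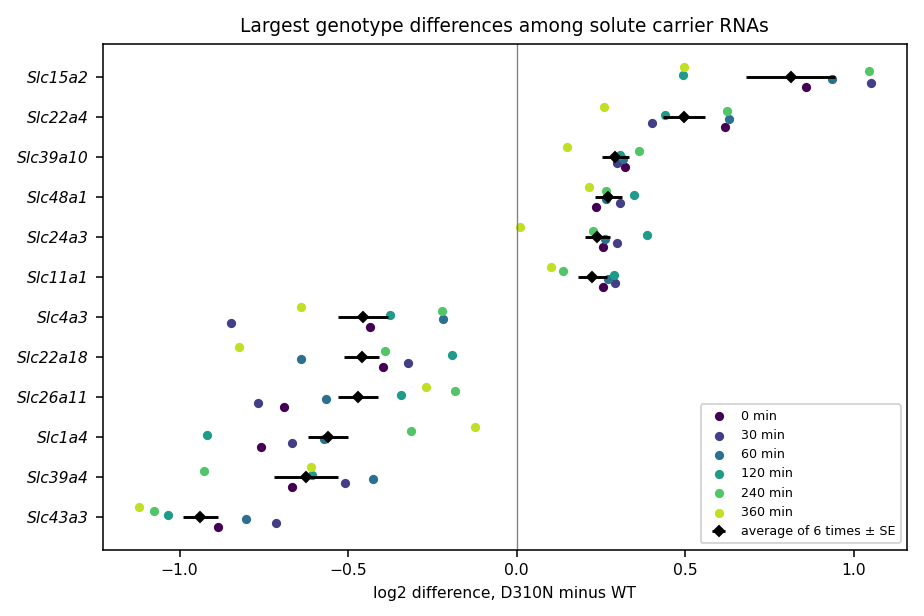
Log2 difference, D310N minus WT, at each of the 6 times (coloured points) and on average over them (black diamonds with SE) for the 6 members highest and the 6 lowest in D310N among those called on average. The averages run from -0.94 for Slc43a3 to 0.81 for Slc15a2, and all 6 points of each gene lie on the side of its average.

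Whether the LPS response itself differed between genotypes was tested jointly over the 5 LPS times. This test called 11 of the 189 members (5.82%, against 4.84% of all genes), and 25 (against 10.4%) without the library that stood apart. Differences of responses are given as the change in D310N minus the change in WT.

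Slc31a1, the copper importer, rose further in D310N. It was 10.19, 10.26 and 10.27 in WT and 10.11, 10.14 and 10.11 in D310N at 0 min and 11.12, 11.41 and 11.27 and 11.51, 11.49 and 11.48 after 360 min, the first WT value being that of the library that stood apart. The D310N libraries lay below all WT libraries at 0 min and above all of them at 360 min. The responses differed by 0.34 ± 0.06 at 360 min, or 0.27 ± 0.05 without that library, and the joint test gave an adjusted p of 0.00313, or 0.00163 without it. Slc39a8, a zinc importer, also gained more in D310N, but from a lower level at 0 min. Without that library its level was higher in D310N by 0.26 ± 0.08 at 360 min, less than its responses differed. Part of the difference of responses thus lay in the lower start. On average over the times the level of Slc39a8 was lower in D310N (-0.13 ± 0.03 without that library). Its responses differed by 0.36 ± 0.11 at 240 min (adjusted p = 0.0715) and 0.48 ± 0.11 at 360 min, or 0.56 ± 0.10 without that library (joint adjusted p = 0.00448, or 0.000433 without it).

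Slc20a1 was 9.82, 9.84 and 9.91 without LPS and 9.63, 9.64 and 9.70 after 120 min in D310N, and 9.47, 9.65 and 9.53 after 120 min in WT. Without LPS the D310N values of Slc20a1 lay below the WT values given above. Its fall at 120 min was smaller in D310N (-0.20 ± 0.06) than in WT (-0.56 ± 0.06), a difference of 0.36 ± 0.09 (joint adjusted p = 0.00452). The responses of Slc38a2 differed by 0.32 ± 0.09 at 60 min (adjusted p = 0.363), with that of D310N the higher. At 120 min the difference was 0.38 ± 0.09 (adjusted p = 0.0245). The level of Slc38a2 was not higher in D310N on average over the times (-0.14 ± 0.02 without the library that stood apart). Without that library the responses differed by 0.26 ± 0.08 at 360 min, where the levels did not (-0.09 ± 0.06, not called). The D310N level thus started lower without LPS. The responses of Slc16a10 differed in the same direction as those of Slc38a2, by 0.36 ± 0.07 at 360 min, or 0.38 ± 0.08 without the library that stood apart.

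The other members called by the joint test had differences of either sign. For Slc25a44 (joint adjusted p = 0.00221) the differences of responses were 0.21 ± 0.06 at 120 min (adjusted p = 0.142) and -0.12 ± 0.06 at 240 min (adjusted p = 0.379). For Slc25a25 (joint adjusted p = 0.00928) they were -0.10 ± 0.07 at 60 min, not called, and 0.21 ± 0.07 at 120 min (adjusted p = 0.232). For Slc30a1 the difference was -0.35 ± 0.13 at 120 min (adjusted p = 0.303). The creatine importer Slc6a8 gave -0.16 ± 0.06 at 240 min (adjusted p = 0.217). Slc37a3, a sugar-phosphate carrier of the Slc37 family, had the lower response in D310N at 120 min (-0.43 ± 0.11, adjusted p = 0.0402), and the magnesium carrier Slc41a2 gave 0.20 ± 0.06 at 120 min (adjusted p = 0.187). The joint calls of Slc30a1 and Slc6a8 ended when any of 18 and any of 22 of the 36 libraries was left out, with adjusted p of up to 0.101 and 0.0954.

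The serotonin transporter Slc6a4, by contrast, differed by -0.83 ± 0.21 between D310N and WT at 240 min (adjusted p = 0.00525), and its LPS response did not pass the joint test (adjusted p = 0.144). The glutamate carrier Slc25a22 was lower in D310N at 240 min (-0.31 ± 0.07), with a joint adjusted p of 0.145, or 0.0452 without the library that stood apart. Slc39a14 read 10.82, 10.75 and 10.91 in D310N at 240 min, above the 3 WT values of that time (0.39 ± 0.08), with a joint adjusted p of 0.0843, or 0.0142 without that library. Slc28a2 read 10.70, 10.78 and 10.74 in D310N at 240 min, below the 3 WT values (-0.62 ± 0.14), and its joint adjusted p was 0.596, or 0.0018 without that library.

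**Figure D5:**
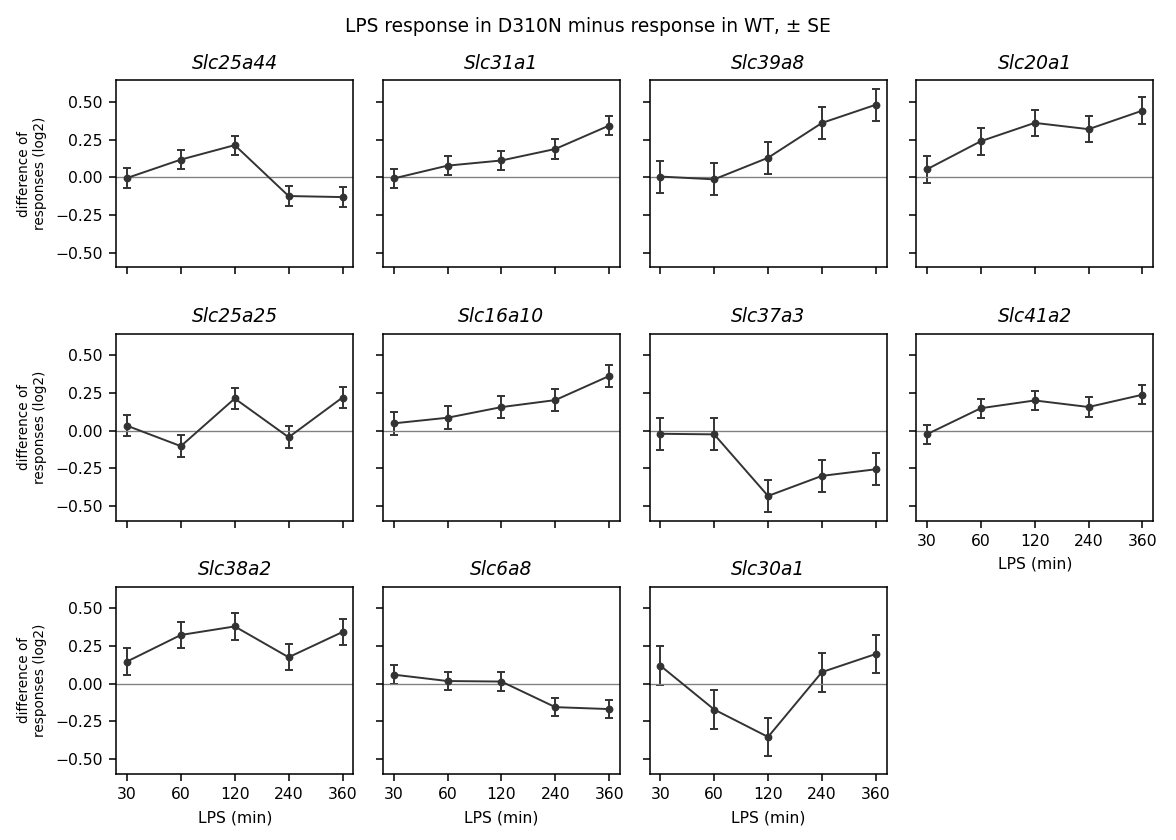
Difference of the LPS responses, D310N minus WT, in log2 units with SE (bars) at 30 to 360 min of LPS for the 11 members called by the joint test. Slc31a1, Slc39a8, Slc20a1, Slc16a10, Slc38a2 and Slc41a2 lie above 0 at 120 to 360 min, Slc37a3 lies below 0, and Slc25a44, Slc25a25, Slc30a1 and Slc6a8 change side over time.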

How the data were processed

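RNA of 36 libraries (12 groups of 3) was sequenced in single-end reads of 75 bp, per the labels. Per the submitters' processing notes the authors used STAR 2.5.2a, RSEM 1.2.31, DESeq2 1.10.1 and mm10; the roles are not given in the sources used here. The deposited values are normalised levels on a log2 scale, whose transformation is not named. One that pulls low values together would shrink differences of weakly expressed genes. Depth is unknown, so no counting intervals are given.

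Of 16439 rows, 23 named as calendar dates were dropped and 11659 passed the floor. The values were fitted with limma 3.58.1 in R 4.3.3 as 12 group means over all 36 libraries, with an intensity trend and 24 residual degrees of freedom. Tests were two-sided, with Benjamini-Hochberg adjustment over all genes tested per comparison, and the model was checked on simulated data. Comparisons were each LPS time against 0 min within a genotype, D310N against WT at each time and on average, and the difference of responses by an F test over 5 times. Positions (GENCODE M21, GRCm38, the build mm10) were found for all 189 members.

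The members, substrate classes and gene lists were chosen with earlier results of these data known. Up to 4 members per class, or 6 where needed to include a riser and a faller, were named by the size of their LPS change without overlap, then the 6 highest and 6 lowest of the genotype average, the 6 with the smallest joint p, and 41 members known in macrophages, of which 1 is not reported here. Alternatives were pseudocounts, floors, median and quantile scaling, library weights, the compared groups alone, replicate blocks and each library left out.

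The replicate numbers recur in every group. Deviations of same-numbered libraries correlated above 0.1 in all 3 pairs in 1 of 16 comparisons (0.131 to 0.373), that of 120 min with 0 min in D310N. In D310N every correlation of an LPS time with 0 min was above 0, from 0.0365 to 0.419. Those of WT ran from -0.25 to 0.125. This is a hint the data give and the labels do not.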

Additional observations from a re-analysis of the deposited data

Results flagged for a closer look

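The LPS responses of 11 members differed between WT and D310N macrophages by the joint test over the 5 LPS times (limma, adjusted over all genes tested). This was 5.82% of the 189 members, against 4.84% of all genes. Without the library that stood apart 25 members were called, against 10.4% of all genes. Among the 11, metal carriers were Slc31a1 for copper (adjusted p = 0.00313), Slc39a8 for zinc and manganese (0.00448), Slc30a1 for zinc (0.0389) and Slc41a2 for magnesium (0.0259). Mitochondrial carriers were Slc25a44 (0.00221) and Slc25a25 (0.00928). Carriers of amino acids and their relatives were Slc16a10 (0.0191), Slc38a2 (0.0273) and Slc6a8, which carries creatine (0.0387), and the other two were the phosphate importer Slc20a1 (0.00452) and the sugar-phosphate carrier Slc37a3 (0.0235).

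The calls of Slc25a44, Slc31a1, Slc39a8, Slc20a1 and Slc25a25 held without any 1 of the 36 libraries. The joint call of Slc16a10 ended without D310N replicate 1 of 360 min (adjusted p = 0.0567) or D310N replicate 3 of 360 min (adjusted p = 0.054). That of Slc37a3 ended without WT replicate 1 of 120 min (adjusted p = 0.0553) or D310N replicate 1 of 120 min (adjusted p = 0.0536) or D310N replicate 3 of 120 min (adjusted p = 0.0546), and that of Slc41a2 without WT replicate 3 of 30 min (adjusted p = 0.0609) or D310N replicate 2 of 30 min (adjusted p = 0.0557) or D310N replicate 3 of 360 min (adjusted p = 0.054). For Slc38a2 it ended without WT replicate 2 of 0 min (adjusted p = 0.0721) or WT replicate 3 of 0 min (adjusted p = 0.0631) or WT replicate 2 of 120 min (adjusted p = 0.0508) or D310N replicate 1 of 0 min (adjusted p = 0.0628) or D310N replicate 3 of 0 min (adjusted p = 0.0578).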

How the results depend on the processing

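Replicate numbers do not follow from the labels as pairs. With a replicate block the members called numbered 26 for D310N against WT at 0 min, or 30 with a replicate block within each genotype (added after seeing the data), against 17 without one. No other count of members moved by over 1.5 times with either block. With library weights 20 members were called in WT and 18 in D310N at 30 min, and 61, 50 and 55 between genotypes at 0, 30 and 60 min, and 38 by the joint test. Quantile normalisation gave 19 in WT at 30 min and 26 between genotypes at 0 min, no floor gave 4 in WT at 30 min, and median centring gave 3 in D310N at 30 min. Fits of the compared groups alone called 37, 40 and 1 between genotypes at 0, 60 and 360 min. For the average over the times, 1 mean per replicate number and genotype (3 against 3) called 61. Beyond the shares given above, the share of all genes was not taken under these alternatives or with libraries left out. The shifts in the counts therefore cannot be read as particular to the members.

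With each library left out in turn, the calls ranged from 2 to 14 in WT and from 3 to 8 in D310N at 30 min. Between genotypes they ranged from 11 to 35 at 0 min, 10 to 34 at 30 min, 16 to 37 at 60 min, 18 to 43 at 120 min, 24 to 47 at 240 min and 23 to 45 at 360 min, and by the joint test from 7 to 25. The libraries that moved a count by over 1.5 times were, in WT at 30 min, WT replicates 1 and 3 of 0 min (4 and 3 calls), WT replicates 1 and 3 of 30 min (5 and 2) and WT replicate 1 of 360 min (14), and in D310N at 30 min, D310N replicate 3 of 0 min (3) and of 30 min (3). Between genotypes they were WT replicate 1 of 360 min at 0, 30 and 60 min (35, 34 and 37), D310N replicate 3 of 0 min at 0 min (11), and WT replicates 1 and 2 and D310N replicate 1 of 30 min at 30 min (12, 11 and 10). At 120 min they were WT replicates 1, 2 and 3 of that time (20, 18 and 20), at 240 min D310N replicate 1 (24) and at 360 min D310N replicates 1 and 3 (23 and 24). For the joint test they were WT replicate 1 of 360 min (25) and D310N replicate 3 of 360 min (7). The cause was not tested. Of the single values of the members named above under each alternative, 8064 kept their side of the threshold, 130 lost and 30 gained a call, and 2 reversed, both at 240 min in WT with quantile normalisation, Slc6a6 (-0.79) and Slc3a2 (-0.40).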
